A study of Rattus norvegicus with 3 samples.

Results

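The TAM receptors Axl, Mertk and Tyro3 and their ligands Gas6 and Pros1 are the 5 genes described here, 3 receptors and 2 ligands, taken by symbol from the 17328 genes of the deposited count matrices. Single nuclei of the spinal cord lesion epicenter were profiled in 3 groups of wild-type Sprague Dawley rats, 17 weeks old, all with a spinal cord injury 49 days earlier. The groups were a scaffold that releases HGF (hepatocyte growth factor, the ligand of the receptor tyrosine kinase MET), a scaffold whose label names no HGF, and no treatment, and each implant had been in place for 7 days. Each group had 1 library, and the labels used here do not give the number of animals behind it. No value therefore has a replicate, no test between groups exists, and every interval below is a 95% interval that covers counting error only. The untreated group had no implant, so the operation and the scaffold material cannot be told apart.

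TAM receptors are tyrosine kinases of phagocytes and of several brain and spinal cord cells. Their ligands Gas6 and Pros1 (protein S) are vitamin K-dependent proteins that bind phosphatidylserine on dying cells and on myelin debris and bridge it to the receptor, which starts engulfment and dampens inflammatory signalling. Gas6 binds all of the receptors, whereas protein S acts mainly on Tyro3 and Mertk. In the central nervous system Mertk and Axl are best known from microglia and macrophages, and Tyro3 from neurons and myelinating glia.

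The promoters of Axl and Mertk are shown because these receptors had the most alike pattern among the member pairs over lineages and libraries (Pearson r = 0.68 over 26 units, described at the end). Both are RefSeq sequences of build GRCr8, printed 5′ to 3′ on the strand of the gene, with 250 bases before and 50 bases after the start. All 5 members were matched in the RefSeq promoter table, and the files themselves give no coordinates. The Axl sequence is chr1:90423960-90424259 on the minus strand and the Mertk sequence is chr3:136392324-136392623 on the plus strand. Capitals mark matches on either strand to GGGCGG (a GC box) and to GAGGAA (the core of sites for PU.1, a transcription factor of myeloid cells); no matches overlap.
Axl: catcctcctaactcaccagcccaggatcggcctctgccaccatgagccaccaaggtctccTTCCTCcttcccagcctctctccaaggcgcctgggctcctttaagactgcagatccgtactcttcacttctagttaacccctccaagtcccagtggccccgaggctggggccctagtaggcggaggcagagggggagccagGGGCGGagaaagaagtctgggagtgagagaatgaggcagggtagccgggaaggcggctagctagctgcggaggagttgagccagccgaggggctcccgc
Mertk: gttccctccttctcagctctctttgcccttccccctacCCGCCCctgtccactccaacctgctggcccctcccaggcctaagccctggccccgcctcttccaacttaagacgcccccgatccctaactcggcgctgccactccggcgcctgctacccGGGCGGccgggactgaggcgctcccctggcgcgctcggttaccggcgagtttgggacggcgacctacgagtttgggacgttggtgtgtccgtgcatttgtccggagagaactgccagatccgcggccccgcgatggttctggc
The Axl sequence held 1 GC box on the printed strand and 1 PU.1 core on the opposite strand, which reads TTCCTC here. The Mertk sequence held 2 GC boxes, 1 on each strand, and no PU.1 core. Neither held AGGTCA, the hexamer of nuclear receptor sites, on either strand. Of the 33469 promoters of 300 bases in the table, 33.1% held a GC box, 27.6% a PU.1 core and 16.2% AGGTCA on either strand. These matches describe letters in this window and nothing about binding.

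The libraries held 906 nuclei (HGF scaffold), 2168 nuclei (scaffold) and 2252 nuclei (untreated), with median depths of 1047, 1639 and 1408 unique molecular identifiers (UMIs) per nucleus. The HGF scaffold library was the smallest and the shallowest. Cell barcodes shared between libraries numbered 1 for the HGF scaffold and scaffold libraries, 0 for the HGF scaffold and untreated libraries and 3 for the scaffold and untreated libraries. Lineages were named from marker genes among the leading genes of 22 joint clusters, with the 5 TAM genes kept out of both clustering and markers, and they may differ from names the study gave. Levels are in CPM, a gene's UMIs scaled to the UMIs of all genes, both summed over the nuclei of a lineage in a library. They are not divided by gene length and are compared between lineages and libraries, never between genes.

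Microglia-like nuclei were cluster 8, led by Alpk3, Slc2a5 and Blnk, and numbered 28 in the HGF scaffold library, 116 in the scaffold library and 205 in the untreated library. Summed over 17 measured microglia markers they held 4720, 4901 and 4804 CPM in that order of libraries, against 1391, 1404 and 761 CPM in all other nuclei. P2ry12, a defining microglia gene, had 0, 1 and 1 UMI there, and P2ry13, Olfml3 and Selplg were also at 0 in the 28 HGF scaffold nuclei, whereas Sall1 had 3, 43 and 41 UMIs. Of the 108 microglia-marker UMIs of these 28 nuclei, Inpp5d held 43, Csf1r 18 and Blnk 14, and Tmem119 and Cx3cr1 held 1 each. Inpp5d, Csf1r and Blnk stood at 1879, 787 and 612 CPM there and at 742, 577 and 372 CPM in macrophage-like nuclei of that library. The 18 macrophage markers summed to 5419, 5616 and 4528 CPM in microglia-like nuclei. Macrophage-like nuclei were clusters 1 (led by Msr1, Met and Arg1) and 11 (led by Lyz2, Mmp3 and Cd74) and numbered 369, 429 and 46. Their 18 macrophage markers summed to 12966, 11992 and 15910 CPM, against 4294, 4386 and 1106 CPM in all other nuclei. Both marker lists also named the clusters, so these sums are no separate support for the names. Cluster 11 also had the fibroblast genes Lum, Col1a1, Col1a2 and Postn among its leading genes. Macrophage-like nuclei made up 40.8% of the HGF scaffold library, 19.8% of the scaffold library and 2.05% of the untreated library, and cluster 1 alone held 286, 365 and 19 of them. Mitochondrial UMIs were 0.267%, 0.171% and 0.678% of all UMIs in macrophage-like nuclei and 0.118%, 0.143% and 0.109% in microglia-like nuclei.

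**Figure D1:**
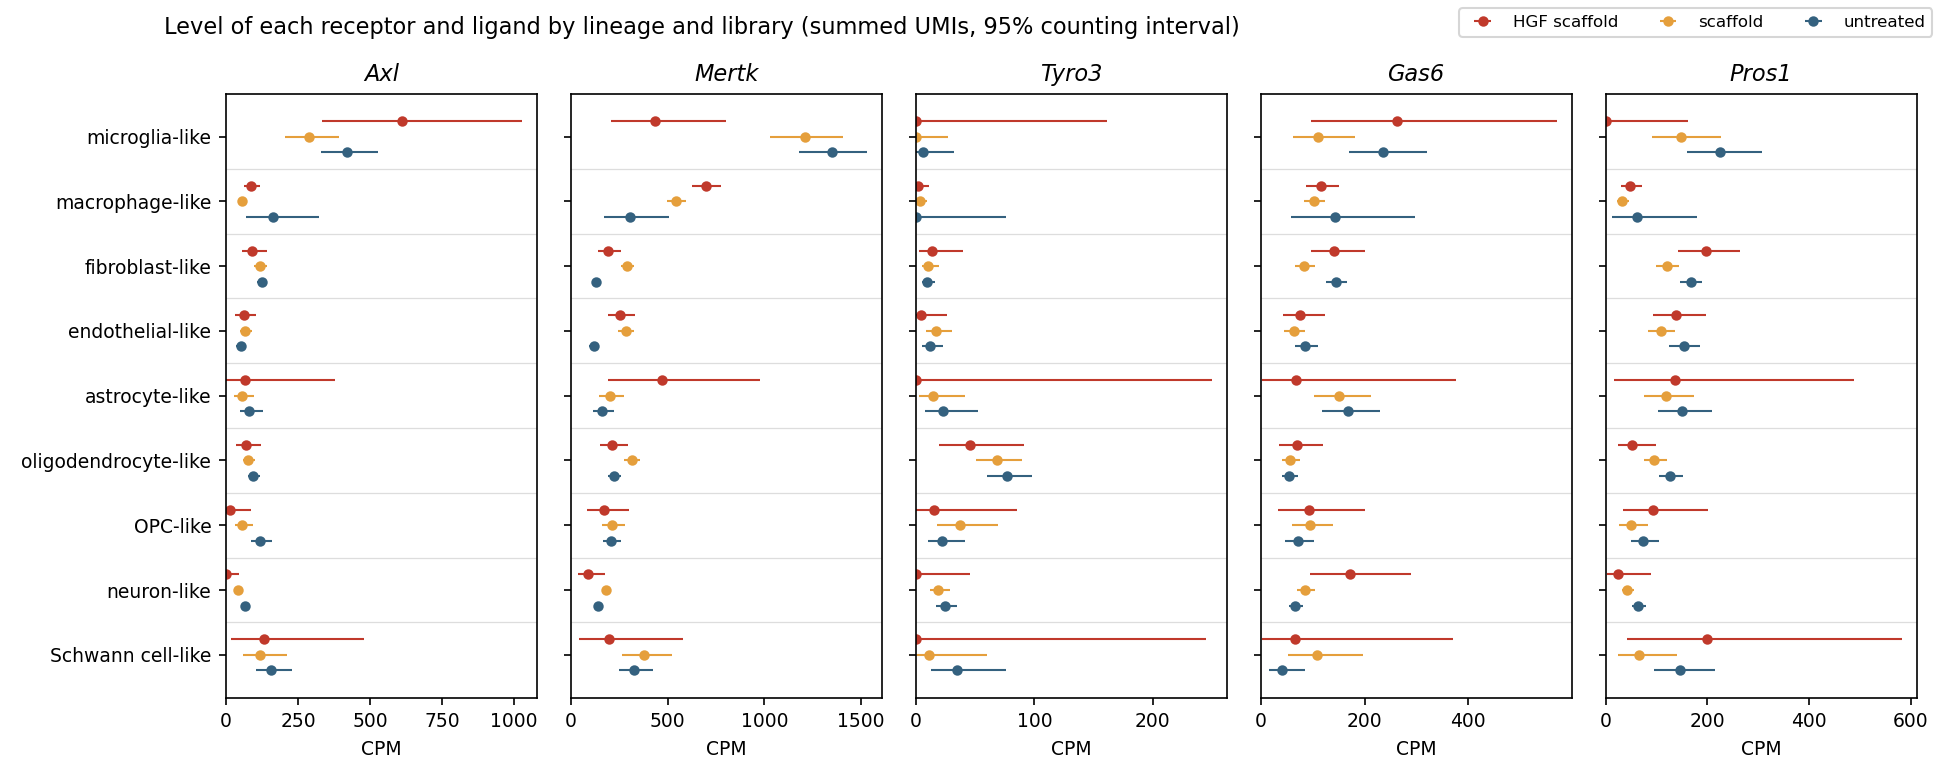
Level of each receptor and ligand in CPM (horizontal axes, 1 scale per gene) in 9 lineages, with points for the HGF scaffold, scaffold and untreated libraries and bars for 95% counting intervals. Microglia-like nuclei stand highest for Axl in all 3 libraries and for Mertk in the scaffold and untreated libraries, and Tyro3 stands highest in oligodendrocyte-like nuclei.

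Mertk, the receptor most tied to steady clearance of dying cells, was read in most lineages and was highest in microglia-like nuclei in 2 of the 3 libraries. Microglia-like nuclei held 10 UMIs (437 CPM) in the HGF scaffold library, 164 UMIs (1209 CPM) in the scaffold library and 234 UMIs (1348 CPM) in the untreated library. The HGF scaffold library thus stood low, and its counting interval (210 to 804 CPM) did not overlap those of the scaffold library (1031 to 1408) or the untreated library (1181 to 1532). The ratio was 0.362 for HGF scaffold over scaffold (interval 0.170 to 0.682), 0.324 for HGF scaffold over untreated (0.154 to 0.607) and 0.897 for scaffold over untreated (0.730 to 1.10). With lineages taken instead from each nucleus' own markers, which gave 79, 180 and 158 microglia-like nuclei, the HGF scaffold over scaffold ratio on the log2 scale was -0.31, in place of -1.47.

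Mertk in macrophage-like nuclei ran in the opposite order of libraries. There were 337 UMIs (696 CPM) in the HGF scaffold library, 508 UMIs (545 CPM) in the scaffold library and 15 UMIs (308 CPM) in the untreated library. The ratio was 1.28 for HGF scaffold over scaffold (1.11 to 1.47), 2.26 for HGF scaffold over untreated (1.35 to 4.08) and 1.77 for scaffold over untreated (1.06 to 3.18). The ratios over the untreated library depended on its 46 nuclei. On the log2 scale HGF scaffold over untreated was 1.18 as reported, 0.53 without mixed nuclei, 0.56 when nuclei under 500 genes were left out and 3.54 with separate clustering of each library. Scaffold over untreated was 0.82 as reported and 0.19, 0.20 and 3.09 under the same settings. These settings had 47, 41 and 17 untreated macrophage-like nuclei, so the values from separate clustering rest on the fewest. Different clusters held the lineage in the implant and untreated libraries, so the values within cluster 1 are set beside these. In cluster 1, Mertk stood at 814 CPM (305 UMIs) in the HGF scaffold library, 571 CPM (486 UMIs) in the scaffold library and 558 CPM (11 UMIs) in the untreated library. The HGF scaffold over scaffold ratio within it was 1.43 (1.23 to 1.65), and the scaffold over untreated ratio was 1.02 (0.566 to 2.06). Cluster 1 alone therefore did not show the scaffold over untreated difference, and its interval did not exclude it. When the myeloid nuclei were clustered by themselves, those of the implant libraries were divided in different proportions among sub-clusters. Sub-cluster 1, led by Ect2, Neil3 and Cxcl2, held 75 HGF scaffold and 308 scaffold nuclei. Sub-cluster 3, led by Irg1, Kcnh1 and Pon3, held 178 and 55. Sub-cluster 4, led by Mmp13, Col1a2 and Timp1, held 106 and 65, with 27 untreated nuclei. Its leading genes held 5 fibroblast and 3 macrophage markers, so by the naming rule it was fibroblast-like. Mertk for HGF scaffold over scaffold was 1.39 (1.12 to 1.70) in sub-cluster 1, 1.17 (0.857 to 1.61) in sub-cluster 3 and 1.48 (0.883 to 2.55) in sub-cluster 4. For HGF scaffold over untreated it was 2.86 (1.055 to 10.9) in sub-cluster 4, from 53 and 4 UMIs. It was 1.47 (0.721 to 3.48) in sub-cluster 1 and 1.37 (0.648 to 3.46) in sub-cluster 3.

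The order of the 2 myeloid lineages therefore differed between libraries. Mertk in microglia-like over macrophage-like nuclei was 0.628 (0.298 to 1.17) in the HGF scaffold library, 2.22 (1.85 to 2.65) in the scaffold library and 4.37 (2.60 to 7.94) in the untreated library. Orders of lineages, here and below, hold only lineages with at least 15 nuclei in the library. For the HGF scaffold library this leaves out neutrophil-, T or NK cell- and mural-like nuclei (9, 10 and 5 nuclei), with 2, 7 and 0 Mertk UMIs. Among the rest the order by level began with macrophage-like, astrocyte-like (7 UMIs, 474 CPM), microglia-like and endothelial-like nuclei (54 UMIs, 256 CPM). No neighbours in it differed beyond counting error. In the scaffold library microglia-like nuclei stood apart from macrophage-like nuclei, and these from the next lineage, 1.41-fold (1.10 to 1.84). In the untreated library microglia-like nuclei stood 4.12-fold (3.07 to 5.62) above the next lineage, Schwann cell-like nuclei with 56 UMIs (327 CPM).

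Shares of nuclei with a Mertk UMI were read beside T or NK cell-like nuclei, a lineage that should lack the receptor. Their cluster also had the macrophage markers Mrc1 and Lyn among its leading genes. The 18 macrophage markers summed there to 3871, 6434 and 1456 CPM in the HGF scaffold, scaffold and untreated libraries. This background is thus not free of macrophage RNA, and the part of that RNA in its Mertk shares was not tested. After every nucleus was thinned to 500 UMIs, a share of 17.9% of microglia-like nuclei had a Mertk UMI in the HGF scaffold library, 31.9% in the scaffold library and 41.5% in the untreated library. The unthinned shares were 32.1%, 52.6% and 55.6%. For macrophage-like nuclei the thinned shares were 24.7%, 21.0% and 13.0% and the unthinned shares 45.5%, 50.6% and 19.6%. In T or NK cell-like nuclei the thinned shares were 20% (2 of 10 nuclei), 7.5% (3 of 40) and 0% (0 of 17, with an upper bound of 19.5%), and the unthinned shares 50%, 20% and 5.88%. Median depths were 705, 936.5 and 756 UMIs in microglia-like nuclei, 987, 1880 and 844.5 in macrophage-like nuclei, and 943.5, 901.5 and 584 in T or NK cell-like nuclei. The Mertk share of microglia-like nuclei in the HGF scaffold library was thus at the share of 10 T or NK cell-like nuclei and cannot be told from background there, while those of the scaffold and untreated libraries were above it. The macrophage-like share of the HGF scaffold library was above that of T or NK cell-like nuclei after thinning and below it unthinned, so it is not set apart from these 10 nuclei either.

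Outside the myeloid nuclei Mertk was higher in the scaffold library than in the untreated library, in endothelial-, fibroblast-, oligodendrocyte- and neuron-like nuclei. Myeloid here means microglia-like and macrophage-like nuclei together. Nuclei other than myeloid thus include the unnamed clusters and neutrophil-like nuclei. The latter numbered 9, 56 and 0 and held 2, 71 and 0 Mertk UMIs in the HGF scaffold, scaffold and untreated libraries. In all nuclei other than myeloid Mertk stood at 215.5 CPM (203 UMIs) in the HGF scaffold library, 261 CPM (1234 UMIs) in the scaffold library and 153 CPM (874 UMIs) in the untreated library. The scaffold over untreated ratio was 1.71 (1.57 to 1.87), the HGF scaffold over scaffold ratio was 0.825 (0.707 to 0.957) and the HGF scaffold over untreated ratio was 1.41 (1.21 to 1.65). On the log2 scale, thinning to 500 UMIs moved scaffold over untreated to 0.42, in place of 0.78, and turned HGF scaffold over untreated to -0.23. Lineages from each nucleus' own markers gave 0.012 for HGF scaffold over scaffold. Endothelial-like nuclei held 256, 285 and 118 CPM, with a scaffold over untreated ratio of 2.41 (1.85 to 3.17) and an HGF scaffold over untreated ratio of 2.17 (1.51 to 3.10). After thinning, the HGF scaffold over untreated ratio was 0.42 on the log2 scale (-1.28 to 1.95), in place of 1.12. Fibroblast-like nuclei held 42 UMIs (192 CPM), 277 UMIs (292 CPM) and 189 UMIs (128 CPM), with ratios of 2.28 (1.89 to 2.76) for scaffold over untreated and 0.656 (0.462 to 0.910) for HGF scaffold over scaffold; thinning left 0.23 on the log2 scale for scaffold over untreated, in place of 1.19. Cluster 3, the fibroblast-like nuclei led by Col2a1, Tnc and Tnn, gave 2.96 (2.31 to 3.83) for scaffold over untreated. Cluster 7, which took no lineage name and was led by the transporter gene Slc26a7, gave 3.11 (1.99 to 4.96). Oligodendrocyte-like nuclei held 213, 314 and 224 CPM (scaffold over untreated 1.40, 1.15 to 1.70, turning to -0.14 on the log2 scale when each library was clustered alone), and neuron-like nuclei 86.1, 182 and 142 CPM (1.29, 1.05 to 1.57). OPC-like nuclei (oligodendrocyte precursors) held 169, 214 and 208 CPM.

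Macrophage genes were, like Mertk, higher outside the myeloid nuclei in both implant libraries than in the untreated library. Between the implant libraries their sum was close, whereas Mertk was lower in the HGF scaffold library. In nuclei other than myeloid, the 18 macrophage markers summed to 4266 CPM in the HGF scaffold library, 4351 CPM in the scaffold library and 1002 CPM in the untreated library. Msr1, a macrophage scavenger receptor, stood there at 227, 222 and 18.5 CPM. Neutrophil-like nuclei, counted among these nuclei, held 96 of 4018 marker UMIs in the HGF scaffold library and 1266 of 20540 in the scaffold library. Per 100 macrophage-marker UMIs, Mertk had 5.05, 6.01 and 15.2 UMIs in nuclei other than myeloid, 5.37, 4.55 and 1.94 in macrophage-like nuclei and 8.07, 21.5 and 29.8 in microglia-like nuclei. The part of macrophage RNA in the Mertk values outside the myeloid nuclei was not tested. The plot of Mertk against macrophage markers shows microglia-like nuclei of the scaffold and untreated libraries above all other units at a like marker sum.

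**Figure D2:**
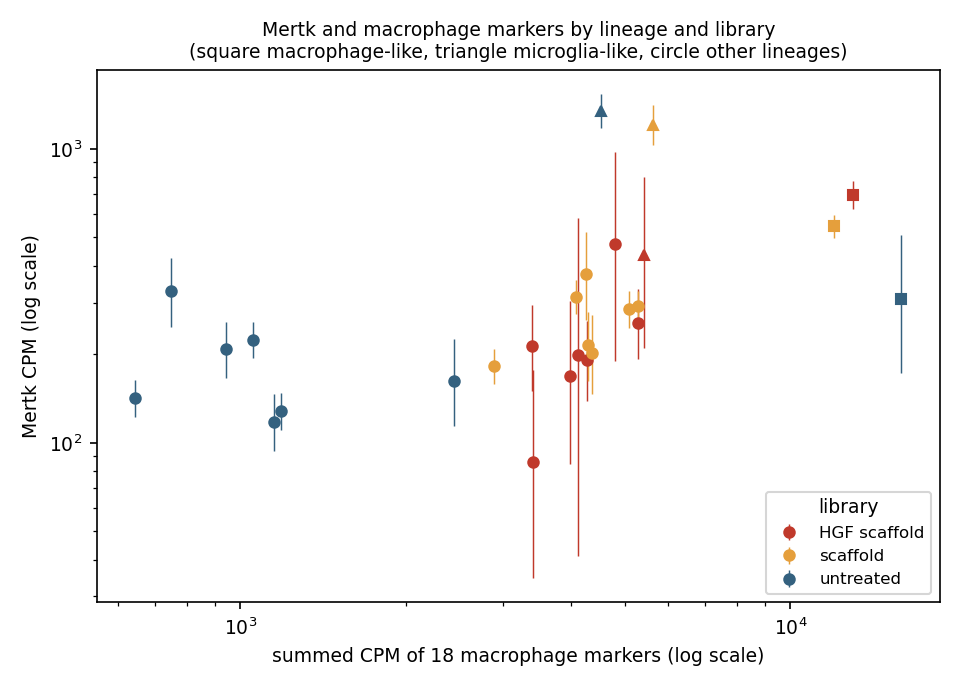
Mertk level against the summed level of 18 macrophage markers (CPM, both axes log scale) for each lineage and library; squares are macrophage-like, triangles microglia-like and circles other lineages, colours give the library and bars 95% counting intervals. The circles of both implant libraries lie to the right of those of the untreated library, and the microglia-like triangle of the HGF scaffold library (437 CPM) lies below the other two (1209 and 1348 CPM).

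Over all nuclei of a library, Mertk stood at 380 CPM (550 UMIs) in the HGF scaffold library, 329 CPM (1906 UMIs) in the scaffold library and 189 CPM (1123 UMIs) in the untreated library. These totals came from different lineages. Macrophage-like nuclei held 61.3% of all Mertk UMIs in the HGF scaffold library, 26.7% in the scaffold library and 1.34% in the untreated library. Microglia-like nuclei held 1.82%, 8.60% and 20.8%. In myeloid nuclei as a whole the level was 685, 630 and 1120 CPM, highest in the untreated library, where most myeloid nuclei were microglia-like.

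**Figure D3:**
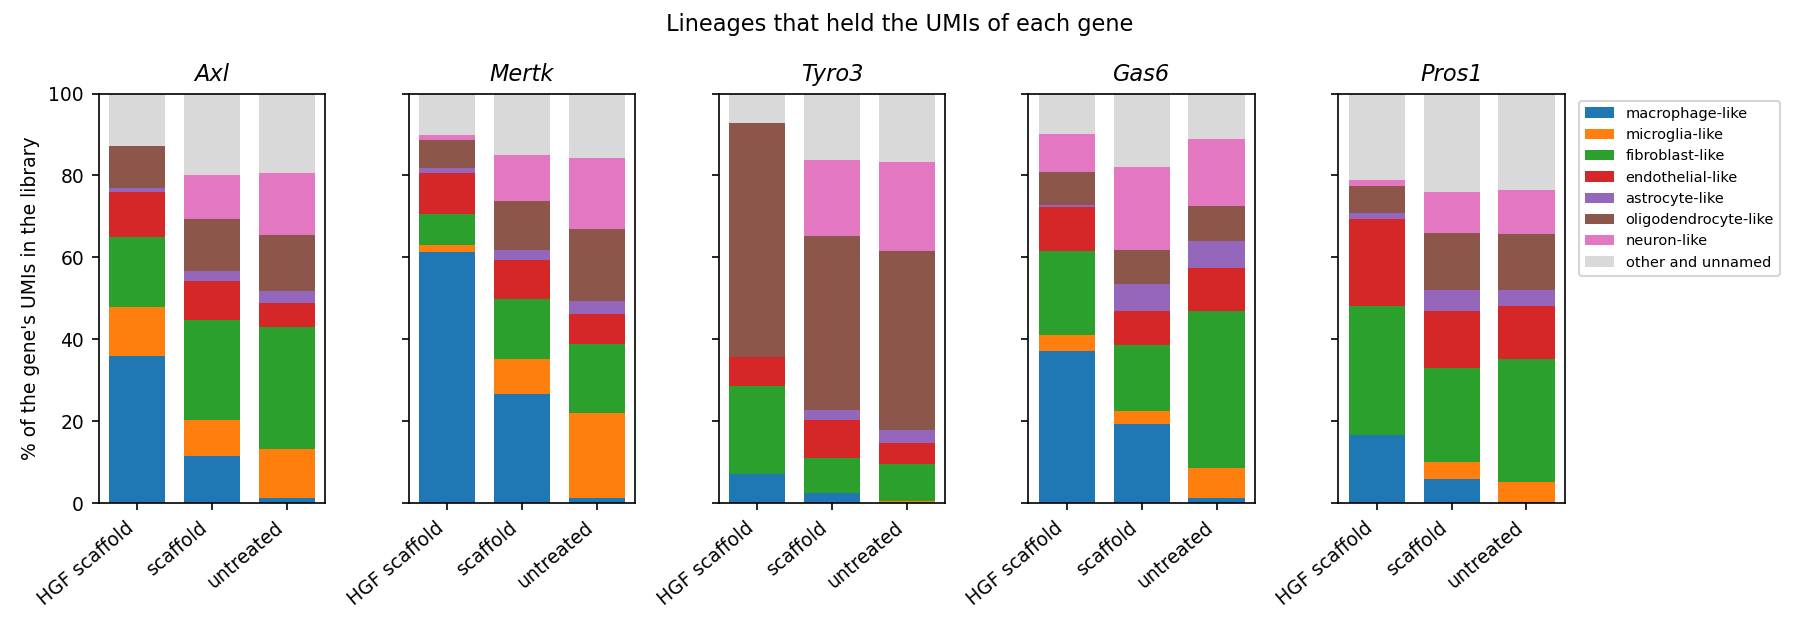
Share of each gene's UMIs held by each lineage (stacked bars, % of the gene's UMIs in a library) for the HGF scaffold, scaffold and untreated libraries. The macrophage-like part of Mertk is 61.3%, 26.7% and 1.34%, and oligodendrocyte-like nuclei hold 57.1%, 42.4% and 43.6% of Tyro3.

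Axl, the receptor that inflammatory signals induce and that binds Gas6, had its highest level in microglia-like nuclei. They held 14 UMIs (612 CPM) in the HGF scaffold library, 39 UMIs (287 CPM) in the scaffold library and 73 UMIs (420.5 CPM) in the untreated library. The scaffold library was the lowest and the HGF scaffold library the highest, although the intervals of the HGF scaffold library (334.5 to 1027 CPM) and the untreated library (330 to 529 CPM) overlapped. The ratio was 2.13 (1.07 to 4.01) for HGF scaffold over scaffold, 1.46 (0.758 to 2.60) for HGF scaffold over untreated and 0.684 (0.451 to 1.02) for scaffold over untreated. The HGF scaffold value rests on 10 nuclei with an Axl UMI, the highest of them with 3.

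Microglia-like nuclei stood above macrophage-like nuclei in Axl in every library, by 7.05-fold (3.56 to 13.2) with the HGF scaffold, 5.05-fold (3.25 to 7.78) with the scaffold and 2.56-fold (1.23 to 6.15) untreated. Against nuclei other than myeloid they stood 9.45-fold (4.88 to 17.1), 3.75-fold (2.62 to 5.22) and 4.52-fold (3.49 to 5.78) higher. Among lineages with at least 15 nuclei, microglia-like nuclei stood apart from the next in the HGF scaffold library (4.61-fold over Schwann cell-like nuclei, 1.06 to 41.8). That order leaves out 10 T or NK cell-like nuclei (3 Axl UMIs among 12143 UMIs) and 9 neutrophil-like nuclei (2 among 14265), which were not compared. In the scaffold library microglia-like nuclei also stood apart from the next lineage (2.31-fold over mural-like nuclei, 1.02 to 6.13). In the untreated library they did not differ beyond counting error from mural-like nuclei, which held 12 UMIs (370.0 CPM) in 16 nuclei. No other neighbours in the 3 orders for Axl differed beyond counting error.

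The thinned share of microglia-like nuclei with an Axl UMI was 25.0%, 12.9% and 15.6% in the HGF scaffold, scaffold and untreated libraries, and the unthinned share 35.7%, 26.7% and 27.8%. In macrophage-like nuclei the thinned share was 3.52%, 2.33% and 2.17% and the unthinned share 8.67%, 9.56% and 8.70%. Oligodendrocyte-like nuclei, taken as a lineage with little or no Axl, had thinned shares of 4.35%, 5.24% and 5.18% and unthinned shares of 10.4%, 19.0% and 19.9%, at median depths of 1141, 2532 and 2616 UMIs. T or NK cell-like nuclei, the background lineage for Mertk, held 3, 3 and 2 Axl UMIs in 10, 40 and 17 nuclei. The 10 nuclei of the HGF scaffold library are too few to set the microglia-like Axl share there apart from them. The Axl shares of macrophage-like nuclei were thus at background in all 3 libraries. Their levels, 86.8 CPM (42 UMIs), 56.9 CPM (53 UMIs) and 164 CPM (8 UMIs), are given as values only.

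Among the other lineages, fibroblast-like nuclei held 91.3, 117 and 125 CPM and endothelial-like nuclei 61.6, 66.2 and 51.0 CPM in the HGF scaffold, scaffold and untreated libraries. OPC-like nuclei held 1 UMI (15.4 CPM), 15 UMIs (56.4 CPM) and 49 UMIs (120 CPM), a scaffold over untreated ratio of 0.471 (0.245 to 0.853). On the log2 scale that ratio was -1.09 as reported, -0.41 with lineages from each nucleus' own markers and -0.34 after thinning. Neuron-like nuclei held 0, 49 and 93 UMIs (42.2 CPM in the scaffold library and 68.0 CPM in the untreated library). Fibroblast-like nuclei held 17.1%, 24.4% and 30% of all Axl UMIs, and microglia-like nuclei 12%, 8.59% and 11.9%.

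The balance of the 2 receptors within microglia-like nuclei differed between the HGF scaffold library and the other two. Axl made up 58.3% of the Axl and Mertk UMIs (interval 36.6 to 77.9) in the HGF scaffold library, 19.2% (14.0 to 25.3) in the scaffold library and 23.8% (19.1 to 28.9) in the untreated library. Thinning to 500 UMIs gave 66.7%, 21.4% and 22.4%. In macrophage-like nuclei the share was 11.1% (8.10 to 14.7), 9.45% (7.16 to 12.2) and 34.8% (16.4 to 57.3), the last from 23 UMIs, and thinning gave 11.2%, 8.21% and 14.3%. In nuclei other than myeloid it was 23.1%, 22.7% and 37.9%, and thinning gave 35.2%, 28.6% and 38.8%. Of the 28 microglia-like nuclei of the HGF scaffold library, 7 had Axl alone, 6 Mertk alone, 3 both and 12 neither. In the scaffold library these numbers were 10, 40, 21 and 45, and in the untreated library 23, 80, 34 and 68.

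The naming of nuclei weighs on this result, since the HGF scaffold library gave so few microglia-like nuclei. When the myeloid nuclei were clustered again by themselves, a step added after seeing the data, the sub-cluster led by Sall1, Alpk3 and Slco2b1 held 31, 89 and 189 nuclei, and Axl made up 57.1%, 19.7% and 23.8% of its Axl and Mertk UMIs. There Axl stood at 832 CPM in the HGF scaffold library and 336 CPM in the scaffold library (ratio 2.48, 1.41 to 4.27), and Mertk at 624 and 1371 CPM (0.455, 0.262 to 0.744). With lineages from each nucleus' own markers the HGF scaffold share was 32.0%. Macrophage markers also reached microglia-like nuclei, with 5419, 5616 and 4528 CPM summed over 18 markers and Msr1 at 262, 229 and 63.4 CPM. Their part in the balance of Axl and Mertk was not tested.

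**Figure D4:**
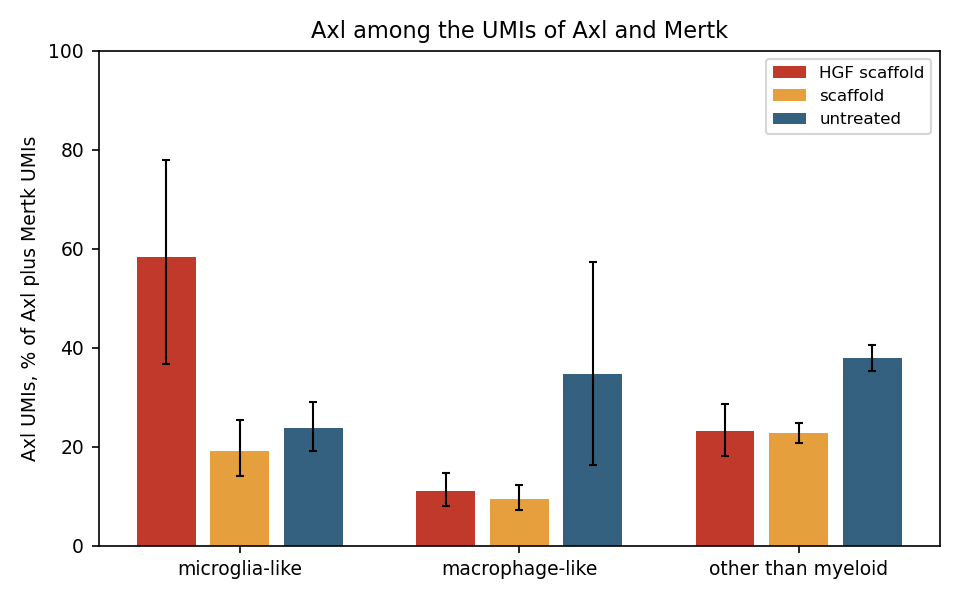
Axl UMIs as % of Axl plus Mertk UMIs in microglia-like nuclei, macrophage-like nuclei and nuclei other than myeloid, with bars for the HGF scaffold, scaffold and untreated libraries and whiskers for exact 95% binomial intervals. In microglia-like nuclei the HGF scaffold bar stands at 58.3%, against 19.2% and 23.8%.

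Tyro3, a receptor of neurons and myelinating glia, had its highest level in oligodendrocyte-like nuclei and few UMIs in myeloid nuclei. Oligodendrocyte-like nuclei held 8 UMIs (46.1 CPM) in the HGF scaffold library, 50 UMIs (68.2 CPM) in the scaffold library and 68 UMIs (77.3 CPM) in the untreated library. The intervals of the 3 libraries overlapped, with ratios of 0.676 (0.277 to 1.44) for HGF scaffold over scaffold and 0.882 (0.60 to 1.29) for scaffold over untreated. Against all other nuclei of the same library the level was 9.80-fold (2.98 to 34.3), 5.07-fold (3.45 to 7.41) and 4.45-fold (3.19 to 6.18) higher. The thinned shares of oligodendrocyte-like nuclei with a Tyro3 UMI were 2.61%, 3.81% and 5.18% and the unthinned shares 6.96%, 18.1% and 21.1%, and none of the 10, 40 and 17 T or NK cell-like nuclei had a Tyro3 UMI, with upper bounds of 30.9%, 8.81% and 19.5%.

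Neuron-like nuclei held 0 UMIs of Tyro3 in the HGF scaffold library, 22 (18.9 CPM) in the scaffold library and 34 (24.9 CPM) in the untreated library. OPC-like nuclei held 1 UMI (15.4 CPM), 10 UMIs (37.6 CPM) and 9 UMIs (22.0 CPM). Macrophage-like nuclei held 1, 3 and 0 UMIs and microglia-like nuclei 0, 0 and 1, so that Tyro3 was at or near the limit of detection in myeloid nuclei at this depth. Over all nuclei Tyro3 stood at 9.7 CPM (14 UMIs), 20.4 CPM (118 UMIs) and 26.2 CPM (156 UMIs), and HGF scaffold over scaffold was 0.474 (0.252 to 0.827). That ratio sets unlike mixtures side by side. Macrophage-like nuclei made up 40.8% of the HGF scaffold library and 19.8% of the scaffold library, and neuron-like nuclei 3.65% and 8.95%.

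Gas6, the ligand of all TAM receptors, was spread over many lineages. Microglia-like nuclei held 6 UMIs (262 CPM) in the HGF scaffold library, 15 UMIs (110.5 CPM) in the scaffold library and 41 UMIs (236 CPM) in the untreated library. The scaffold library stood lowest there, with 0.468 (0.241 to 0.864) for scaffold over untreated, and 2.37 (0.754 to 6.47) for HGF scaffold over scaffold. Macrophage-like nuclei held 116 CPM (56 UMIs), 102 CPM (95 UMIs) and 144 CPM (7 UMIs). Thinned shares with a Gas6 UMI were 10.7%, 3.45% and 12.7% in microglia-like nuclei, 5.96%, 3.73% and 4.35% in macrophage-like nuclei and 3.48%, 4.29% and 2.79% in oligodendrocyte-like nuclei. The unthinned shares were 14.3%, 11.2% and 17.6% in microglia-like, 11.7%, 16.8% and 10.9% in macrophage-like and 7.83%, 13.8% and 13.1% in oligodendrocyte-like nuclei. In the scaffold library the thinned Gas6 shares of both myeloid lineages were therefore not above that of oligodendrocyte-like nuclei. By level, macrophage-like nuclei (102 CPM, 82.5 to 125) stood above oligodendrocyte-like nuclei (55.9 CPM, 40.1 to 75.8) there. The interval of microglia-like nuclei (61.9 to 182 CPM) overlapped that of oligodendrocyte-like nuclei. The thinned shares alone thus do not place macrophage-like nuclei at background.

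Fibroblast-like nuclei, the matrix-making cells of the lesion scar and meninges, held 31 UMIs of Gas6 (141.5 CPM) in the HGF scaffold library, 79 UMIs (83.3 CPM) in the scaffold library and 214 UMIs (145 CPM) in the untreated library. Again the scaffold library was the lowest, with 0.575 (0.438 to 0.747) for scaffold over untreated and 1.70 (1.08 to 2.60) for HGF scaffold over scaffold; this last ratio turned to -0.016 on the log2 scale when each library was clustered alone. Cluster 2, the fibroblast-like nuclei led by Ptgds and Igf2, gave 3.86 (1.44 to 9.45) for HGF scaffold over scaffold. It held only 31 HGF scaffold nuclei, beside 233 scaffold nuclei. Neuron-like nuclei held 14 UMIs (172 CPM), 99 UMIs (85.2 CPM) and 91 UMIs (66.5 CPM), and HGF scaffold over scaffold was 2.02 (1.07 to 3.55). Astrocyte-like nuclei held 1 UMI (67.7 CPM), 32 UMIs (151 CPM) and 37 UMIs (167 CPM), which was 1.83-fold (1.24 to 2.63) above all other nuclei in the scaffold library and 1.83-fold (1.28 to 2.56) in the untreated library. In no library did neighbours in the order of lineages differ beyond counting error for Gas6, and all nuclei together held 104, 84.6 and 94.0 CPM.

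Pros1, the gene of protein S, was lower in macrophage-like nuclei than outside the myeloid nuclei in both implant libraries. Macrophage-like nuclei held 23 UMIs (47.5 CPM) in the HGF scaffold library, 30 UMIs (32.2 CPM) in the scaffold library and 3 UMIs (61.7 CPM) in the untreated library. Against nuclei other than myeloid this was 0.393 (0.239 to 0.619), 0.339 (0.226 to 0.491) and 0.456 (0.0937 to 1.34). Microglia-like nuclei held 20 UMIs (147 CPM) in the scaffold library and 39 UMIs (225 CPM) in the untreated library. No UMI was counted in the 28 microglia-like nuclei of the HGF scaffold library, where the upper bound of 161 CPM lies above the level in the scaffold library, so no difference between these 2 libraries was detectable at this depth.

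Fibroblast-like nuclei held 43 UMIs of Pros1 (196 CPM) in the HGF scaffold library, 114 UMIs (120 CPM) in the scaffold library and 246 UMIs (167 CPM) in the untreated library. The ratio was 1.63 (1.12 to 2.34) for HGF scaffold over scaffold and 0.722 (0.573 to 0.905) for scaffold over untreated, so the scaffold library was again the lowest at full depth. Endothelial-like nuclei held 137, 108 and 153 CPM, with 0.704 (0.513 to 0.962) for scaffold over untreated, which turned to 1.54 on the log2 scale when each library was clustered alone. Oligodendrocyte-like nuclei held 51.9, 95.4 and 126 CPM, and HGF scaffold over untreated was 0.411 (0.183 to 0.809). The unnamed cluster 7 held 16 UMIs (146 CPM), 79 UMIs (249 CPM) and 116 UMIs (292 CPM). In all nuclei other than myeloid Pros1 stood at 121 CPM (114 UMIs), 94.9 CPM (448 UMIs) and 135 CPM (775 UMIs), with 0.701 (0.623 to 0.789) for scaffold over untreated. Thinning to 500 UMIs moved the fibroblast-like ratios on the log2 scale to 0.022 for scaffold over untreated and to 0.14 (-0.97 to 1.13) for HGF scaffold over scaffold. The interval of the latter includes both 0 and the ratio at full depth, so thinning does not decide whether that difference is kept. Thinning also gives every nucleus the same weight, so these shifts cannot be read as depth alone.

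**Figure D5:**
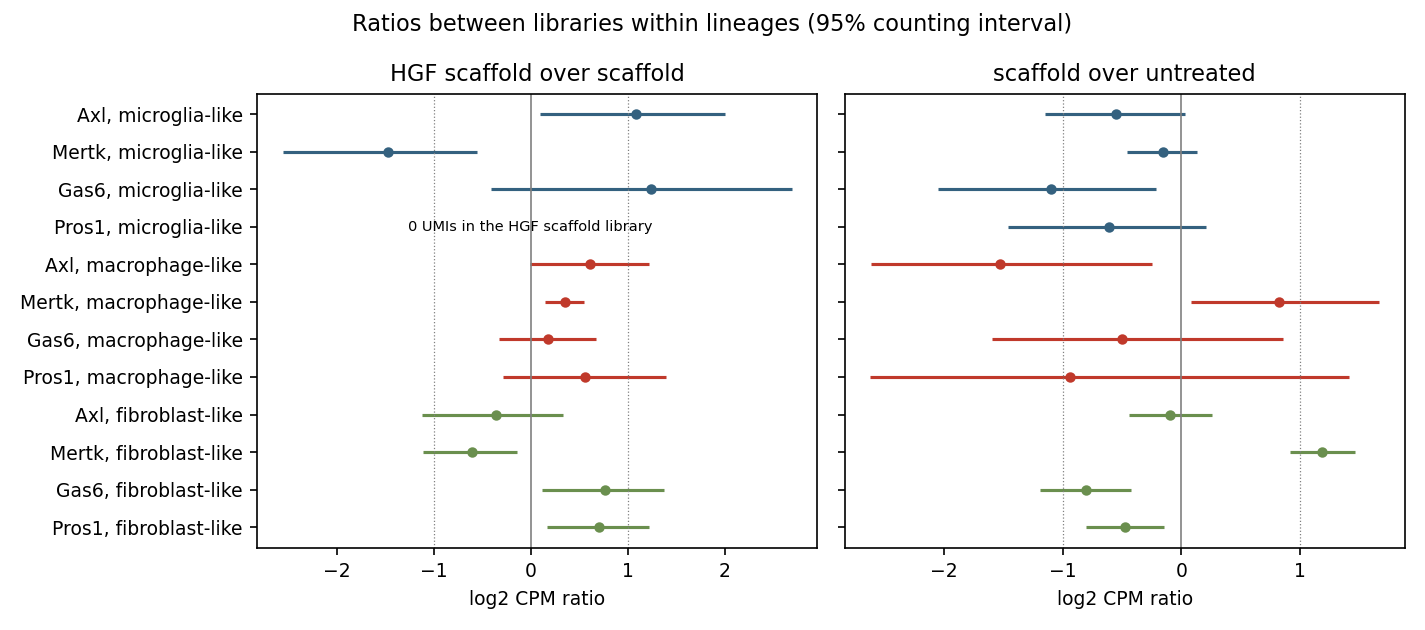
Log2 CPM ratios of Axl, Mertk, Gas6 and Pros1 in microglia-, macrophage- and fibroblast-like nuclei for HGF scaffold over scaffold and scaffold over untreated, with 95% counting intervals; dotted lines mark 2-fold either way and Pros1 had 0 UMIs in microglia-like nuclei of the HGF scaffold library. Axl and Mertk in microglia-like nuclei lie on opposite sides of 0 for HGF scaffold over scaffold (2.13-fold and 0.362-fold).

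The count of members past a 2-fold ratio was read against the share of all genes past it, among genes with at least 20 UMIs over both libraries. In microglia-like nuclei 4 members were measurable. For HGF scaffold over scaffold Axl and Gas6 were past 2-fold upward, where 6.26% of all genes were, and Mertk downward, where 14.1% were (20.3% either way); with at least 500 genes per nucleus Gas6 was at 0.041 on the log2 scale. For scaffold over untreated only Gas6 was past it, downward (4.04% of all genes downward, 8.92% either way), and for HGF scaffold over untreated only Mertk, downward (14.7% of all genes). In macrophage-like nuclei 0 of 4 measurable members were past it for HGF scaffold over scaffold (8.07% of all genes either way). For scaffold over untreated Axl was past it downward (16.2% of all genes downward, 28.8% either way), which reversed to 0.24 on the log2 scale after thinning, and for HGF scaffold over untreated Mertk upward (17.2% of all genes upward). Untreated macrophage-like nuclei held 8 Axl UMIs before thinning and fewer after it, too few to settle a direction. In these last 2 comparisons the median log2 ratio of all genes was 0.13, with 46 untreated nuclei behind it. The single members past 2-fold in macrophage-like nuclei are thus not set apart from the share of all genes.

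In fibroblast-like nuclei Mertk was past 2-fold upward for scaffold over untreated, 1 of 5 members (7.4% of all genes upward). No member was past it there for HGF scaffold over scaffold (13.2% of all genes either way) or over untreated (17.7% either way). In endothelial-like nuclei Mertk was past it upward for scaffold over untreated and for HGF scaffold over untreated, 1 of 4 measurable members each time (8.89% of all genes upward in both), and no member for HGF scaffold over scaffold (11.3% either way). In all nuclei other than myeloid no member was past it for HGF scaffold over scaffold (7.19% either way), scaffold over untreated (9.16%) or HGF scaffold over untreated (13.7%). In myeloid nuclei read together 4 members were measurable. For scaffold over untreated Axl (0.236, 0.174 to 0.323), Gas6 (0.477, 0.337 to 0.685) and Pros1 (0.248, 0.161 to 0.383) were past 2-fold downward, where 9.37% of all genes were. For HGF scaffold over untreated Axl (0.303, 0.212 to 0.431) and Pros1 (0.24, 0.138 to 0.408) were past it downward, where 9.59% of all genes were. No member was past it for HGF scaffold over scaffold. Microglia-like nuclei numbered 28 beside 369 macrophage-like nuclei in the HGF scaffold library, 116 beside 429 in the scaffold library and 205 beside 46 in the untreated library, so these ratios set unlike mixtures side by side. Comparisons that share the untreated or the scaffold library are not independent of each other.

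Around the TAM receptors, 58 other genes of engulfment were listed in 8 groups, of which 50 were in the files, and they were read in myeloid nuclei. For HGF scaffold over scaffold 40 were measurable, 1 was past 2-fold upward (3.47% of all 8013 measured genes) and 1 downward (4.49%), and their median log2 ratio was 0.02 beside 0.00 for all genes. Cd36, a scavenger receptor that takes up oxidized lipid and dying cells, stood at 146 CPM in the HGF scaffold library and 54.4 CPM in the scaffold library (2.69-fold, 1.88 to 3.86). Megf10, an engulfment receptor best known from astrocytes, had 2 and 23 UMIs (0.183, 0.0209 to 0.741). Next came Gulp1, an adaptor of engulfment receptors (1.85, 1.25 to 2.75), Itgb5, an integrin chain that binds the bridging protein Mfge8 (1.70, 1.13 to 2.55), and Lrp1, a receptor for calreticulin and myelin debris, at 548.5 and 359 CPM (1.53, 1.31 to 1.79). The lowest after Megf10 were Timp3, an inhibitor of receptor shedding (0.505, 0.245 to 0.962), the adaptor Crk (0.764, 0.586 to 0.988), Elmo1, which with Dock proteins activates Rac1 (0.838, 0.765 to 0.916), Itgb3 (0.865, 0.508 to 1.43) and Rac1 (0.873, 0.648 to 1.17).

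Cd36 and Megf10 were also past 2-fold when only macrophage-like nuclei were read, a setting added after seeing the data. Of 39 measurable genes, Cd36 (2.51, 1.75 to 3.62), Gulp1 (2.23, 1.46 to 3.42), Itgb5 (2.12, 1.34 to 3.36) and the oxysterol receptor gene Nr1h2 (2.08, 0.877 to 5.0) were past 2-fold upward for HGF scaffold over scaffold (3.98% of all genes), and Megf10 downward (4.09%). Lrp1 stood at 550 CPM and 362 CPM (1.52, 1.29 to 1.79). Within cluster 1, Cd36 was at 2.68 (1.77 to 4.08) and Lrp1 at 1.496.

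For scaffold over untreated, 38 of the engulfment genes were measurable in myeloid nuclei, 2 past 2-fold upward (9.49% of all genes) and 3 downward (9.37%), with a median log2 ratio of 0.22 beside -0.02 for all genes. Itgb3 (3.89, 1.26 to 19.4) and Nr1h3, an oxysterol receptor that responds to engulfed cholesterol (3.18, 1.18 to 12), were upward. Itgb5 stood at 53.4 CPM in the scaffold library and 265.5 CPM in the untreated library (0.201, 0.137 to 0.295). Xkr4, of the family of phosphatidylserine scramblases (0.375, 0.244 to 0.584), and Cd300lf, a phosphatidylserine receptor (0.430, 0.276 to 0.683), were also lower. Among genes within 2-fold, Rhbdf2 was at 1.97 (1.17 to 3.53), Ifnar1, a chain of the type I interferon receptor, at 1.82 (1.34 to 2.51), Lrp1 at 1.48 (1.11 to 2.0), Ppard at 0.613 (0.417 to 0.922) and Adam10, a protease that sheds cell surface proteins, at 0.681 (0.545 to 0.858).

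For HGF scaffold over untreated 35 genes were measurable, 4 past 2-fold upward (Cd36, Lrp1, Itgb3 and Nr1h3, with 10.3% of all genes upward) and 3 downward (Xkr4, Itgb5 and Cd300lf, with 9.59% of all genes downward). Cd36 was at 2.70 (1.46 to 5.47), Lrp1 at 2.26 (1.68 to 3.08), Rhbdf2 at 1.89 (1.09 to 3.49), Ifnar1 at 1.72 (1.24 to 2.42) and Gulp1 at 1.60 (0.871 to 3.13). Xkr4 was at 0.338 (0.197 to 0.575), Itgb5 at 0.342 (0.227 to 0.511), Cd300lf at 0.396 (0.229 to 0.682), Ppard at 0.573 (0.363 to 0.910) and Abca1, the cholesterol exporter, at 0.739 (0.655 to 0.833). These comparisons set mostly macrophage-like nuclei against mostly microglia-like nuclei. In macrophage-like nuclei alone Cd36 was not higher in the HGF scaffold library (151 CPM) than in the untreated library (206 CPM, 10 UMIs), a ratio of 0.734 (0.377 to 1.59).

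By group of genes, for HGF scaffold over scaffold in myeloid nuclei, the other bridging and eat-me receptors had 7 measurable of 16 listed, with Cd36 upward and Megf10 downward. No member was past 2-fold among the 9 measurable genes of the engulfment machinery, 5 of TAM feedback and signalling, 4 of receptor shedding, 2 of the vitamin K cycle, 4 of phosphatidylserine exposure, 2 of do-not-eat-me signals and 7 of the lipid response. Cd47, the do-not-eat-me signal, was at 1.04 (0.876 to 1.23) and its receptor Sirpa at 1.13 (0.924 to 1.37). Abca1 was at 1.01 (0.920 to 1.10).

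The genes with the most alike pattern were sought over 26 units of 11 lineages in 3 libraries, each with at least 30 nuclei, among 7796 genes with at least 200 UMIs, as Pearson r of log2(CPM + 10). Units of a library share its depth and free RNA, so these values are descriptions with no test. Mertk was most like Lpcat2 (0.93), Npl (0.92) and Ly86 (0.92), and Axl most like Slc1a3 (0.84), Slc10a6 (0.81) and LOC498368 (0.80). Tyro3 was most like Eml1 (0.89), Hibch (0.88) and Fam222a (0.88). The ligands had weaker matches, Pros1 with Fgfr1 (0.76), Vgll4 (0.75) and Ogn (0.73), and Gas6 with Chmp1a (0.72), Idh2 (0.70) and Lrp10 (0.68). Among the members, Axl and Mertk had 0.68, Axl and Pros1 0.56, Mertk and Tyro3 -0.29 and Tyro3 and Gas6 -0.56. The 28 microglia-like nuclei of the HGF scaffold library are too few to be among these units.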

How the data were processed

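Nuclei from the lesion epicenter were captured in droplets (10x, 3′ gel beads) and read in pairs of 150 bp on a HiSeq X, per the labels' protocols. The deposited values are raw counts of UMIs, whole numbers for each gene in each nucleus; the submitters' processing notes name Cell Ranger 6.0.1. The genome build and annotation are not given in the sources used here. The lowest nuclei hold 501, 500 and 500 UMIs in the HGF scaffold, scaffold and untreated libraries. No step for free RNA is recorded.

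Nuclei with at least 200 genes and at most 5% mitochondrial UMIs were kept (905 of 906, 2167 of 2168 and 2248 of 2252). Scrublet called only 2 of 5326 nuclei (0.0375%) and has not worked, so an alternative left out 261 mixed nuclei (3 or more markers each of 5 or more lineages, out of 7). Libraries were clustered together without integration (Python 3.11.15 with pandas 2.3.3, leidenalg 0.10.2, scanpy 1.11.5, scipy 1.17.1, numpy 2.4.6, scikit-learn 1.9.0 and anndata 0.12.19) on 2000 variable genes, 30 components and 15 neighbours at resolution 1. A cluster took the marker list, of 19 lists (193 of 216 markers in the files), with the most genes, at least 3, among its 100 leading genes. Of 22 clusters 2 stayed unnamed.

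Counts were summed per library and lineage. Intervals are exact Poisson (CPM), conditional Clopper-Pearson (ratios) and Clopper-Pearson binomial (shares), at 95%, and cover counting error only. A ratio past 2-fold is at least 2 or at most 0.5 with at least 20 UMIs over both libraries. A ratio against 0 UMIs uses a floor of 3 counts and counts only in its own direction. The ratio step was tested on simulated data. Named genes are the 5 members, the 5 highest and 5 lowest engulfment ratios per comparison with at least 50 UMIs, and the 3 most alike genes per member; others named (Megf10, Cd47, Sirpa, Nr1h2) were chosen after their values were seen. Members, lists and rules were chosen with earlier results of these data known. The 17328 genes include 2834 with no UMI. A gene that this rule names is not reported here.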

Additional observations from a re-analysis of the deposited data

Results flagged for a closer look

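The Mertk ratio of HGF scaffold over scaffold had opposite directions in macrophage-like nuclei, where it was higher with the HGF scaffold, and in 4 other lineages. On the log2 scale the macrophage-like ratio was above that of microglia-like nuclei by 1.82, of neuron-like nuclei by 1.44, of fibroblast-like nuclei by 0.96 and of oligodendrocyte-like nuclei by 0.91. For HGF scaffold over untreated, Mertk was lower in microglia-like nuclei and higher in macrophage-, fibroblast-, endothelial- and astrocyte-like nuclei. The log2 ratios of these 4 lineages were above that of microglia-like nuclei by 2.80, 2.21, 2.74 and 3.17, in this order. With 1 library per group none of these differences was tested.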

How the results depend on the processing

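No paired analysis was possible because each group has 1 library. Of the 17 results that answer a comparison, log2 Axl in macrophage-like nuclei, scaffold over untreated, reversed to 0.24 after thinning to 500 UMIs (-1.53 as reported). The untreated library held 8 Axl UMIs in these nuclei before thinning and fewer after it, too few to settle a direction. With lineages from each nucleus' own markers, log2 Mertk in microglia-like nuclei was -0.31 for HGF scaffold over scaffold and -0.46 for scaffold over untreated, log2 Axl in macrophage-like nuclei was -0.46 for HGF scaffold over scaffold, and the Axl share of Axl and Mertk UMIs in the HGF scaffold library was 32.0% in microglia-like and 5.91% in macrophage-like nuclei. The untreated macrophage-like share was 14.3% after thinning and 83.3% with each library clustered alone, which also gave 3.09 for log2 Mertk in macrophage-like nuclei, scaffold over untreated. That last setting had only 17 untreated macrophage-like nuclei. Clustering alone left 0 microglia-like nuclei in the HGF scaffold library, so it has no value there. Engulfment genes past 2-fold numbered 5 for scaffold over untreated in myeloid nuclei, 10 in macrophage-like and 3 in microglia-like nuclei alone. For HGF scaffold over scaffold they numbered 2, then 1 with at least 50 UMIs, 5 in macrophage-like and 4 in microglia-like nuclei alone. Among the 145 other results, log2 ratios that reversed after thinning were Pros1 in fibroblast-like nuclei, scaffold over untreated (0.022), Mertk in fibroblast-like nuclei (-0.32) and in nuclei other than myeloid (-0.23), HGF scaffold over untreated, Axl in neuron-like nuclei, scaffold over untreated (0.28), and Pros1 in nuclei other than myeloid, HGF scaffold over scaffold (-0.37). With own markers, Mertk reversed in fibroblast-like nuclei, HGF scaffold over untreated (-0.24), and in nuclei other than myeloid, HGF scaffold over scaffold (0.012). With each library clustered alone, Gas6 in fibroblast-like nuclei, HGF scaffold over scaffold (-0.016), Pros1 in endothelial-like (1.54) and Mertk in oligodendrocyte-like nuclei (-0.14), scaffold over untreated, reversed. Pros1 for scaffold over untreated also reversed in neuron-like nuclei without mixed nuclei (0.63) and with equal weight per nucleus (0.086), and in fibroblast-like nuclei with members allowed in clustering (0.020). The cause was not tested. The own-marker shares and the counts in each myeloid lineage alone were settings chosen after seeing the data. Depth limits the HGF scaffold library most, where 28 microglia-like nuclei held 10 Mertk and 14 Axl UMIs.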
